A study of Mus musculus with 10 samples.

Results

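Chromatin accessibility was examined at 10 genes grouped as regulators of the mesenchyme (connective tissue) of the lung. Some of them, such as Gata6 and Meox2, also act in other cells, as given below. The set holds the T-box transcription factor genes Tbx2, Tbx3, Tbx4 and Tbx5 and the transcription factor genes Tcf21, Gata6 and Meox2. It also holds the signalling ligand gene Wnt2 and the receptor genes Pdgfra and Pdgfrb. The 10 genes were chosen by name, with earlier results of these data known. A peak belonged to a gene of the set if it overlapped the gene or lay within 5 kb of its ends. Between several genes, the nearest gene end decided. This gave 15 peaks of the 37511 nuclear peaks in the deposited table, at 9 of the 10 genes, and no peak at Pdgfra. All 15 held enough reads to be tested. ATAC-seq, in which the transposase Tn5 cuts open chromatin, was run on fresh frozen sections of lung and brain from wild-type C57BL/6J mice, an inbred strain. Nuclei were picked at random with a laser after the Tn5 step and pooled into mini-bulks of 50 nuclei captured 1 by 1, or of about 200 nuclei captured as 10 small areas. There were 3 lung libraries and 2 brain libraries of each size. Number of nuclei and mode of capture changed together and cannot be told apart. The labels call the repeats technical, so p-values measure the spread between these libraries.

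T-box factors bind DNA through a shared domain. Tbx4 and Tbx5 are known for their part in outgrowth and branching of the embryonic lung, and Tbx2 and Tbx3, mostly repressors, for keeping its mesenchyme dividing. Tcf21 is a basic helix-loop-helix factor of fibroblast precursors. Gata6 is a zinc-finger factor of lung epithelium, smooth muscle and vessels. Meox2 is a homeobox factor of mesenchyme and endothelium. Wnt2 is secreted by lung mesenchyme, and Pdgfra and Pdgfrb are receptors for platelet-derived growth factors, on fibroblasts and on pericytes respectively. In brain, Pdgfra marks oligodendrocyte precursors and Pdgfrb marks pericytes of the capillaries. The nuclei were a random mixture, so a lower signal from fewer cells of a type cannot be told apart from a less open site in each cell.

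At 3 genes, Tcf21, Meox2 and Tbx4, a peak reached into the 250 bases before a listed gene start, and those bases are shown (RefSeq, GRCm38.p6, the assembly of mm10) with the part inside the peak in capitals, 5′ to 3′ on the strand of the gene. The Tcf21 window is chr10:22820144-22820393 on the minus strand, the Tbx4 window chr11:85896515-85896764 on the plus strand and the Meox2 window chr12:37108290-37108539 on the plus strand.
Tcf21: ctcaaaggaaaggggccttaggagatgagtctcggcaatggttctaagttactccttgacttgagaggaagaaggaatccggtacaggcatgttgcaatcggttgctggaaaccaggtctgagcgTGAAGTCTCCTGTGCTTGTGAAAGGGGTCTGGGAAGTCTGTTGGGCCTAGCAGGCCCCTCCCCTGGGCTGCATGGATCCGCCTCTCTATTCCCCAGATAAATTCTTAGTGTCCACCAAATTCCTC
Tbx4: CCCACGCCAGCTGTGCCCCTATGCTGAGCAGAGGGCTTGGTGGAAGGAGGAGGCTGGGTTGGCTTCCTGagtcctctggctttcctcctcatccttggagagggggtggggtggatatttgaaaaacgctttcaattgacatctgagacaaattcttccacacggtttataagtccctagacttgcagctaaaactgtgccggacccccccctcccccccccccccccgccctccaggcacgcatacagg
Meox2: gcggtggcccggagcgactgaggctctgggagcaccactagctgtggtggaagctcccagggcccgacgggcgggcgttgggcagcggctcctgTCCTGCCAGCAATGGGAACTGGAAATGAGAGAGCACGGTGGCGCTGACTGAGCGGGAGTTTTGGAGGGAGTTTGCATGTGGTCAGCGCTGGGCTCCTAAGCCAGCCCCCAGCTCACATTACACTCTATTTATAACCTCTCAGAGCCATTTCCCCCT
The Tcf21 peak covered the last 125 bases of its window and the Meox2 peak the last 156, both up to the gene start. The Tbx4 peak covered the first 69 bases and stopped 182 bp short of the listed start. That listed start, at 85896765, is inside Tbx4, whose lower-coordinate end is at 85886367, and the peak begins 10053 bp inside the gene. The GC content of the 250 bases was 52.4% at Tcf21, 58.4% at Tbx4 and 62% at Meox2, against a median of 52.4% over 32851 promoter entries. In the capitals, AGATAA, the letters bound by GATA factors, occurred once at Tcf21, 31 bases before the start. The same stretch of all promoters held it in 4.58% of entries (both strands searched). CANNTG, the E-box, occurred once at Tbx4 and once at Meox2, where the same stretches held it in 26.4% and 49.0% of entries. No match was found in the capitals for AGGTGT (T-box), TAATTA (homeobox), CCAAT or GGGCGG. The promoter table also held Wnt2 and Pdgfra, whose windows no peak reached. Tbx2, Tbx3, Tbx5, Gata6 and Pdgfrb were not matched in it.

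Between tissues, the T-box genes Tbx2 and Tbx3 and the factor gene Gata6 were more open in lung, and a single weak peak in Wnt2 was more open in brain. Of the 15 peaks, 4 were higher in lung and 1 in brain (edgeR quasi-likelihood test, adjusted p at 0.05 over 37466 peaks, averaged over both sizes). Over all peaks tested, 10.2% were called, 4.39% higher in lung and 5.76% higher in brain. The split over all peaks, 1645 and 2158, turned to 1205 and 828 with the default filter of edgeR. The 4 peaks higher in lung were also those whose 6 lung libraries all lay above the 4 brain libraries, in reads per 1000000 reads in nuclear peaks (RPM). Such a separation held at 4.94% of all nuclear peaks tested, and the reverse, found at none of the 15, at 8.4%. The median log2 fold of the 15 (brain over lung) was -0.64, and that of all peaks 0.07. The summed level over the 15 peaks was 352 to 577 RPM in the lung libraries and 143 to 216 RPM in the brain libraries. Most of this difference lay at Tbx3 (mean 203 RPM in lung and 45.2 RPM in brain) and Tbx2 (156 and 56.9 RPM). Gata6 followed (41.5 and 7.04 RPM). Mean levels were also higher in lung at Tcf21 and Tbx5, but higher in brain at Tbx4, Meox2, Wnt2 and Pdgfrb. The Tbx4 means were close (8.22 RPM in lung and 8.69 RPM in brain), with 1 brain library at 30.1 RPM. The fitted log2 fold at Tbx4 was -0.33 ± 1.09 (SE), towards lung. That at Meox2 was also towards lung at 200 nuclei (-0.83 ± 1.42). Over both sizes the log2 fold was negative at 12 of the 15 peaks, of which 4 were called. The sum rests mostly on Tbx3 and Tbx2 and therefore does not describe the set as a whole.

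**Figure D1:**
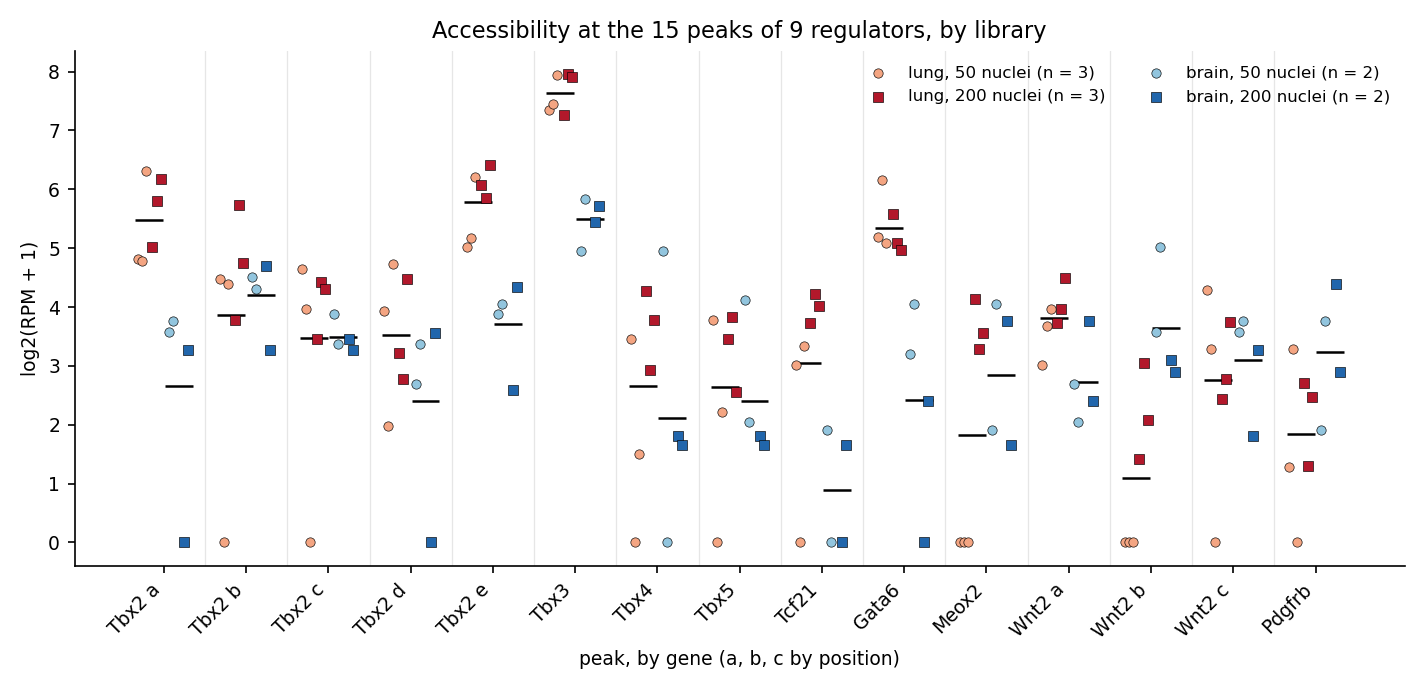
Accessibility at each peak in each library, as log2(RPM + 1). Points are libraries, bars are means of the log2 values over the 6 lung or 4 brain libraries, and letters order the peaks of a gene by position. The lung and brain points of Tbx3, Gata6 and the first and last peaks of Tbx2 do not overlap, and all 3 lung libraries of 50 nuclei are at 0 for Meox2 and the second Wnt2 peak by position, the narrowest.

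Tbx3 had the widest and highest peak of the set. It spans 719 bp at chr5:119670363-119671082, across the lower-coordinate end of the gene, and also lies within the non-coding gene Tbx3os1. Only 1.22% of nuclear peaks were wider. The lung libraries held 162, 173 and 245 RPM at 50 nuclei and 153, 247 and 240 RPM at 200 nuclei. The brain libraries held 30.1 and 56.4 RPM at 50 nuclei and 42.6 and 51.6 RPM at 200 nuclei. The lowest lung library was thus well above the highest brain library, while brain stayed clearly above 0 in each library. Tbx3 was 4.44-fold higher in lung (log2 fold -2.15 ± 0.29 SE, edgeR adjusted p = 4.63e-06). It was the 1 gene of the set called at both sizes, with a log2 fold of -2.04 ± 0.41 at 50 nuclei (edgeR adjusted p = 0.00789) and -2.26 ± 0.40 at 200 nuclei (adjusted p = 0.00106). The first of these calls was lost without either brain library of 50 nuclei (adjusted p = 0.255 without replicate 1 and 0.0945 without replicate 2). The second was lost without either brain library of 200 nuclei (adjusted p = 0.118 and 0.0554), while the average over both sizes stayed called without any single library (adjusted p at most 0.000973).

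Tbx2 had 5 peaks, of which 2 were called, both higher in lung. The first, at chr11:85832555-85832885 (330 bp), spans the lower-coordinate end of the gene. The upper-coordinate end of the non-coding gene 2610027K06Rik lies 167 bp before this peak. The other 4 lie in a stretch 2248 to 4558 bp beyond the upper end, between Tbx2 and Tbx4. They share a neighbourhood and are not independent of each other. At the first peak the lung libraries held 27.01, 26.4 and 78.5 RPM at 50 nuclei and 31.6, 54.9 and 71.5 RPM at 200 nuclei. Brain held 10.9 and 12.5 RPM at 50 nuclei and 0 and 8.59 RPM at 200 nuclei, from 12 reads in all. No brain library reached the lowest lung library, and the peak was 6.38-fold higher in lung (log2 fold -2.67 ± 0.63 SE, edgeR adjusted p = 0.00435).

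The farthest of the 4 peaks beyond Tbx2, chr11:85846506-85846855 (349 bp), had the highest mean level at the gene in lung. It held 31.3, 35.2 and 73.0 RPM in lung at 50 nuclei and 65.9, 57.1 and 83.9 RPM at 200 nuclei. Brain held 13.7 and 15.7 RPM at 50 nuclei and 5.01 and 19.3 RPM at 200 nuclei. It was 4.09-fold higher in lung (log2 fold -2.03 ± 0.50 SE, edgeR adjusted p = 0.00576), again with no overlap between the tissues. Less than 3 kb away, the 3 narrower peaks of 90 to 183 bp, at chr11:85844196-85844379, chr11:85844737-85844864 and chr11:85846052-85846142, had log2 folds of -0.20 ± 0.70, -0.52 ± 0.88 and -1.01 ± 0.99 (SE; edgeR adjusted p = 0.893, 0.753 and 0.551), and lung and brain libraries overlapped at each of them. The nearest of the 3 to the gene held 22.0 ± 17.3 RPM in lung (SD, n = 6) and 18.6 ± 7.14 RPM in brain (SD, n = 4). Whether the wide and the narrow peaks differ in their tissue difference was not tested.

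Brain 200-nuclei replicate 1 was the library in which the first Tbx2 peak and the Gata6 peak held 0 reads. Without it the calls at both Tbx2 peaks and at Gata6 were lost, at log2 folds of -2.21 (edgeR adjusted p = 0.0559), -1.71 (0.0686) and -2.46 (0.0564), and Tbx3 was the only 1 of the 15 still called. Without brain 200-nuclei replicate 2, which leaves that library alone in its group, the fold at the first Tbx2 peak went to -5.26 and that at Gata6 to -5.02.

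**Figure D2:**
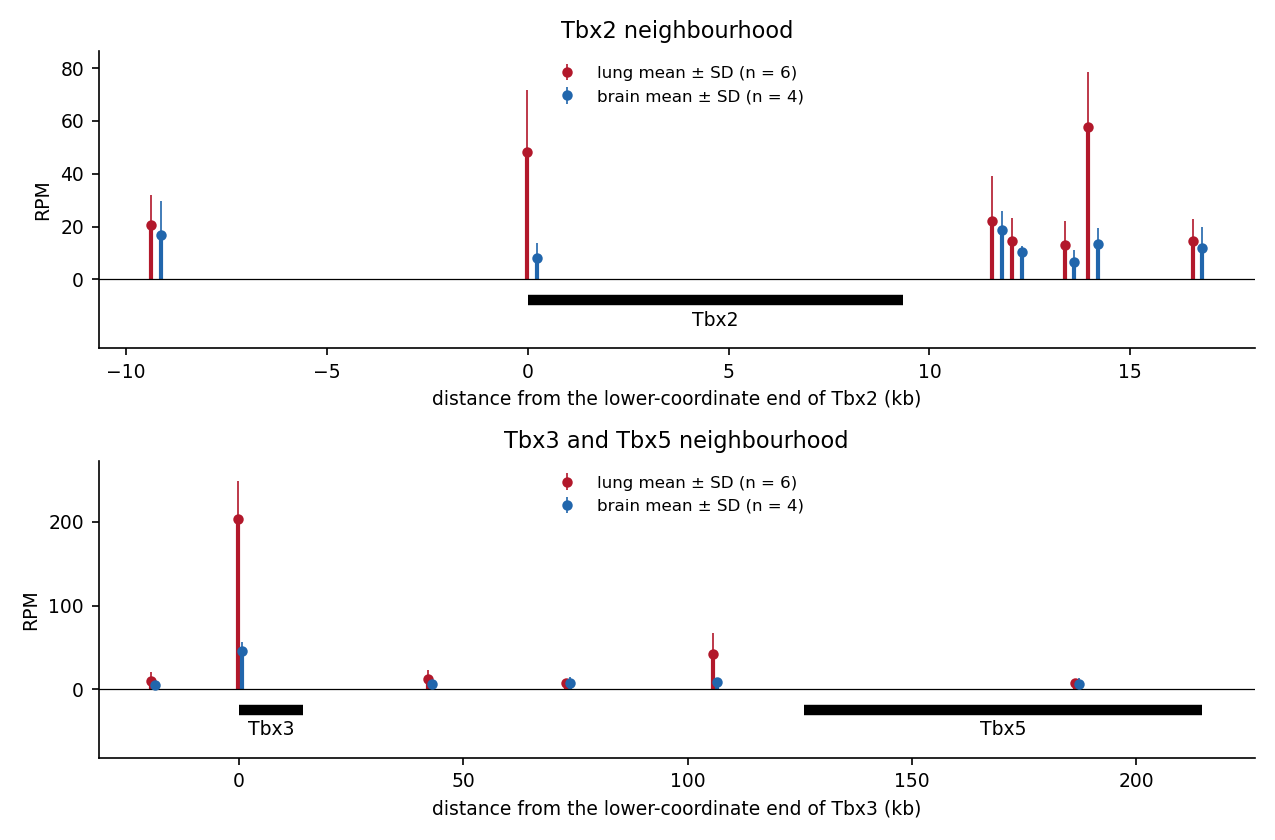
Mean RPM with SD at every nuclear peak near Tbx2 (upper panel) and between 50 kb before Tbx3 and 50 kb after Tbx5 (lower panel), against distance from the lower-coordinate end of Tbx2 or Tbx3 in kb; black bars are genes. Lung exceeds brain most at the 2 tall peaks at Tbx2, at the Tbx3 peak of 203 RPM, and at the peak before Tbx5.

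Tbx4 and Tbx5, neighbours of Tbx2 and Tbx3 on the same chromosomes, had 1 weak peak each inside the gene. The Tbx4 peak, chr11:85896420-85896583, held 9.95, 0 and 1.83 RPM in lung at 50 nuclei and 18.3, 6.59 and 12.7 RPM at 200 nuclei. Brain held 30.1 and 0 RPM at 50 nuclei and 2.51 and 2.15 RPM at 200 nuclei, so 1 brain library, with 11 reads, was above every lung library and the other 3 were low. Its log2 fold was -0.33 ± 1.09 (SE, edgeR adjusted p = 0.882), with 1.80 ± 1.45 at 50 nuclei and -2.46 ± 1.68 at 200 nuclei. The Tbx5 peak, chr5:119857214-119857359, held 0 to 13.2 RPM in lung and 2.15 to 16.4 RPM in brain (log2 fold -0.64 ± 1.098 SE, edgeR adjusted p = 0.758). At both genes the interval spanned by 1 SE on either side held 0, and neither equality nor a difference between the tissues can be read from these 89 and 13 reads at Tbx4 and 62 and 9 reads at Tbx5 in lung and brain.

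Outside the 5 kb reach, 5 further peaks lay within 50 kb of a gene of the set, outside any competing gene. Of these, 1 was higher in lung. This peak, chr5:119776494-119776888 (394 bp), sits 19.6 kb before the lower-coordinate end of Tbx5 and held 41.7 ± 25.4 RPM in lung (SD, n = 6) and 8.20 ± 4.15 RPM in brain (SD, n = 4; log2 fold -2.44 ± 0.64 SE, edgeR adjusted p = 0.0110), with no overlap between libraries of the tissues. The other 4, near Tbx2, Tbx3 and Pdgfra, had adjusted p-values of 0.521 to 0.766. At the edge of the reach, the last peak inside, 4558 bp beyond Tbx2, was the strong one described, and the first outside, at 7.28 kb, held 14.4 ± 8.66 RPM in lung and 11.97 ± 8.004 RPM in brain.

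Among the other factors, Gata6 was the clearest. Its single peak, chr18:11052341-11052682 (341 bp), spans the lower-coordinate end of the gene and also overlaps the upper-coordinate end of the non-coding gene Gata6os. Lung held 35.5, 70.4 and 32.9 RPM at 50 nuclei and 47.1, 32.9 and 30.2 RPM at 200 nuclei. Brain held 8.21 and 15.7 RPM at 50 nuclei and 0 and 4.30 RPM at 200 nuclei, below every lung library. Gata6 was 7.51-fold higher in lung (log2 fold -2.91 ± 0.69 SE, edgeR adjusted p = 0.00476), and only 3.97% of nuclear peaks tested had a lower log2 fold.

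Tcf21 had a fold of like size from far fewer reads. Its peak, chr10:22820114-22820268, covers the gene start shown above and lies within the non-coding gene Gm10824. Lung held 7.11, 0 and 9.13 RPM at 50 nuclei and 12.2, 17.6 and 15.3 RPM at 200 nuclei, 103 reads in all. Brain held 2.74 and 0 RPM at 50 nuclei and 0 and 2.15 RPM at 200 nuclei, 2 reads in all. All 3 lung libraries of 200 nuclei were above every brain library, and lung 50-nuclei replicate 2 was at 0, as were 2 of the 4 brain libraries. The log2 fold of -2.73 ± 1.31 (SE) did not pass the test (edgeR adjusted p = 0.183). Without lung 50-nuclei replicates 2 and 3, the libraries that reached the fewest peaks, it was -2.96 ± 1.06 and passed. That choice was made after seeing the data and leaves lung 50-nuclei replicate 1 alone in its group. In the other 17 settings tried, the Tcf21 peak was not called.

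Meox2 had a peak at its start that went unread in the smaller lung mini-bulks. At chr12:37108384-37108552, lung held 0 reads in each library of 50 nuclei and 16.6, 8.78 and 10.7 RPM at 200 nuclei. Brain held 2.74 and 15.7 RPM at 50 nuclei and 12.5 and 2.15 RPM at 200 nuclei. The larger lung mini-bulks and the brain libraries thus covered a common range. A count of 0 in 1591842 nuclear reads allows up to 1.88 RPM (3 reads over the group) by counting error alone. Lung at 200 nuclei, with 75 reads, was 6.37-fold above that level. The level leaves out the spread between libraries, so 6.37-fold is not a firm minimum. In the fit, which includes that spread, the difference between lung at 200 and 50 nuclei had an unadjusted edgeR p of 0.0029. It did not pass the test over all peaks (edgeR adjusted p = 0.487). The fitted log2 fold between tissues, 2.61 ± 1.34 (SE, edgeR adjusted p = 0.216), depends on the prior count where a group is at 0, and at 200 nuclei it was -0.83 ± 1.42.

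Wnt2, the ligand, had 3 peaks inside the gene. The peak at chr6:17991693-17991927 held 7.11, 11.7 and 14.6 RPM in lung at 50 nuclei, 12.2, 14.6 and 21.5 RPM at 200 nuclei, and 3.13 to 12.5 RPM in brain (log2 fold -1.12 ± 0.94 SE, edgeR adjusted p = 0.481). The peak at chr6:18031654-18031795 held 8.32 ± 6.48 RPM in lung (SD, n = 6) and 8.64 ± 4.40 RPM in brain (SD, n = 4; log2 fold -0.07 ± 0.99 SE, adjusted p = 0.974). Libraries of the tissues overlapped at both.

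The narrowest Wnt2 peak, chr6:18030291-18030382 (91 bp), lies 63 bp downstream of a listed gene start, within the gene, and was the 1 peak of the set higher in brain. Brain held 10.9 and 31.3 RPM at 50 nuclei and 7.52 and 6.44 RPM at 200 nuclei, from 20 reads. Lung held 0 reads in each library of 50 nuclei and 1.66, 7.32 and 3.25 RPM at 200 nuclei, from 23 reads. The highest lung library overlapped the lower brain libraries. The log2 fold was 3.98 ± 1.32 (SE, edgeR adjusted p = 0.0463), with 0.69 ± 1.42 at 200 nuclei (adjusted p = 0.879). At 50 nuclei brain was 10.8-fold above the 3 reads that lung's 0 allows by counting error alone. The spread between libraries is left out of that value. The call was lost without any 1 of the 4 brain libraries or the 3 lung libraries of 200 nuclei (adjusted p = 0.0757 to 0.189) with reads thinned to equal depth (0.0631) and with the replicate number as a block (0.167), and the default filter of edgeR left the peak untested.

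Of the receptors, Pdgfrb had 1 narrow peak of 90 bp at chr18:61045181-61045271, just inside the lower-coordinate end of the gene. Lung held 1.42, 8.81 and 0 RPM at 50 nuclei and 5.54, 1.46 and 4.55 RPM at 200 nuclei. Brain held 2.74 and 12.5 RPM at 50 nuclei and 20.1 and 6.44 RPM at 200 nuclei. The ranges overlapped, with 2 brain libraries above all lung libraries, and the log2 fold was 1.53 ± 1.06 (SE, edgeR adjusted p = 0.379). A further peak 3577 bp before Pdgfrb was nearer to the predicted gene Gm52351 and was assigned to it (9.07 ± 4.64 RPM in lung, 11.6 ± 5.68 RPM in brain). Pdgfra had no peak in reach, and the nearest, 11.9 kb beyond its upper end, held 7.87 ± 5.88 RPM in lung and 3.66 ± 4.02 RPM in brain (log2 fold -1.34 ± 1.23 SE, edgeR adjusted p = 0.521).

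**Figure D3:**
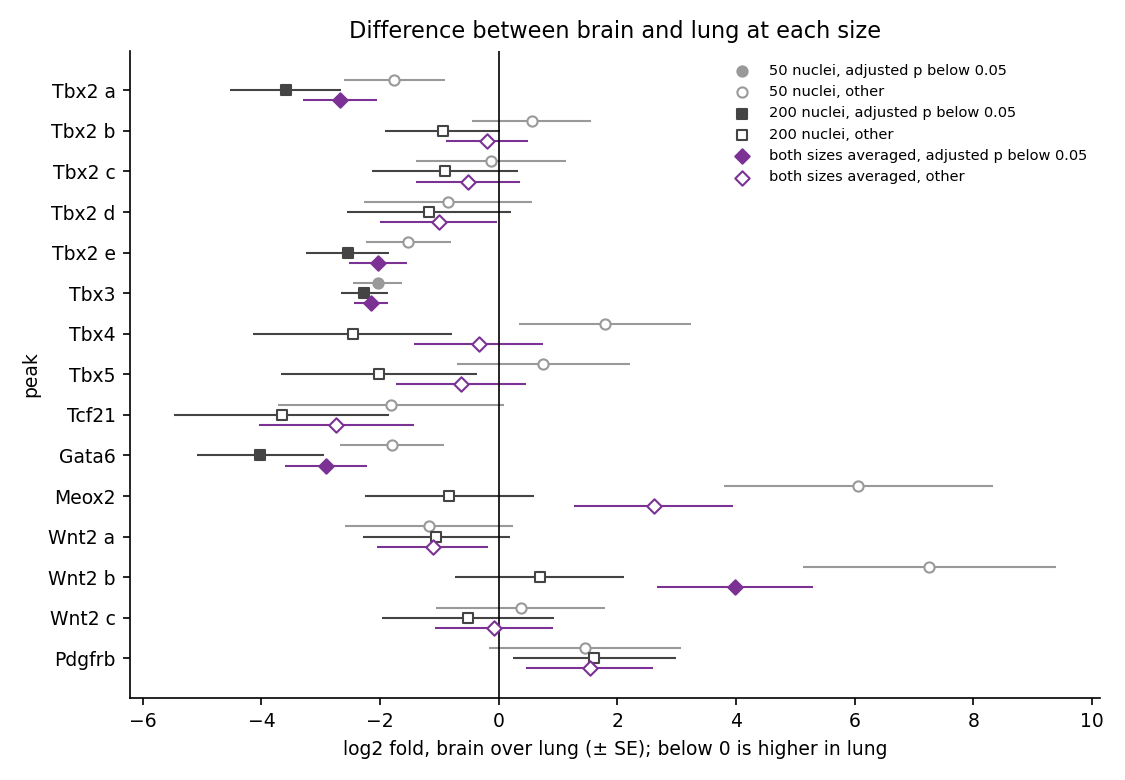
Log2 fold of brain over lung with its SE at the 15 peaks, for 50 nuclei (circles), 200 nuclei (squares) and their average (diamonds); filled marks passed the test. Tbx3 is filled at both sizes, Gata6 and the first and last Tbx2 peaks at 200 nuclei and on average, and the narrowest Wnt2 peak, the second by position, on average alone.

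At 200 nuclei 4 of the 15 peaks were called, all higher in lung, at Tbx3, Gata6 and the 2 wide Tbx2 peaks (2.24% of all peaks were called, 1.24% higher in lung and 1% in brain). Over all peaks that split turned with the scaling, from 464 higher in lung and 375 in brain to 389 and 471 with the size factors of DESeq2. That count was 0 without either brain library of 200 nuclei, 1 without any of the 3 lung libraries of 200 nuclei, and 2 without brain 50-nuclei replicate 2 or lung 50-nuclei replicate 1. At 50 nuclei 1 was called, higher in lung, at Tbx3 (1.41% of all peaks were called, 0.488% higher in lung and 0.918% in brain). Without lung 50-nuclei replicate 1 the narrowest Wnt2 peak joined it, higher in brain. Different counts do not show that the effects differ: no peak of the set passed the interaction test of the tissue difference between sizes (0% of all peaks called by edgeR and by DESeq2). At an unadjusted p under 0.05 the interaction held for 2 of the 15, Meox2 and the narrowest Wnt2 peak, the 2 with 0 reads in lung at 50 nuclei, and for 4.15% of all peaks. All 3 lung libraries of 50 nuclei were at 0 at 5.18% of all nuclear peaks tested. Within lung and within brain, no peak of the set was called between 200 and 50 nuclei (0% of all peaks by edgeR; DESeq2 called 2 over the whole table in lung, none of them in the set, and 0 in brain). At an unadjusted p under 0.05 these were 2 of the 15 in lung, against 8.20% of all peaks, and 0 of the 15 in brain, against 1.137%. At Tbx3 the size difference was 0.38 ± 0.31 in lung and 0.15 ± 0.46 in brain (log2, SE).

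Nuclear reads were 340697 to 703353 in lung at 50 nuclei, 1366128 to 3075377 in lung at 200 nuclei and 319307 to 465489 in brain, so that 1 read is worth 0.325 to 3.13 RPM. They made up 42.0% to 75.3% of the reads in peaks in the lung libraries and 4.24% to 6.62% in the brain libraries, the rest lying in the 2 mitochondrial peaks. The part of this difference in the tissue calls was not tested beyond scaling by nuclear reads alone, with which 4 of the 15 peaks were higher in lung and 1 in brain. Lung libraries of 200 nuclei held reads at all 15 peaks, lung libraries of 50 nuclei at 13, 9 and 10, and brain libraries at 11 to 15. Of the 15 peaks, 6 held a read in every lung library and 10 in every brain library, against 40.7% and 74.3% of all nuclear peaks tested.

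**Figure D4:**
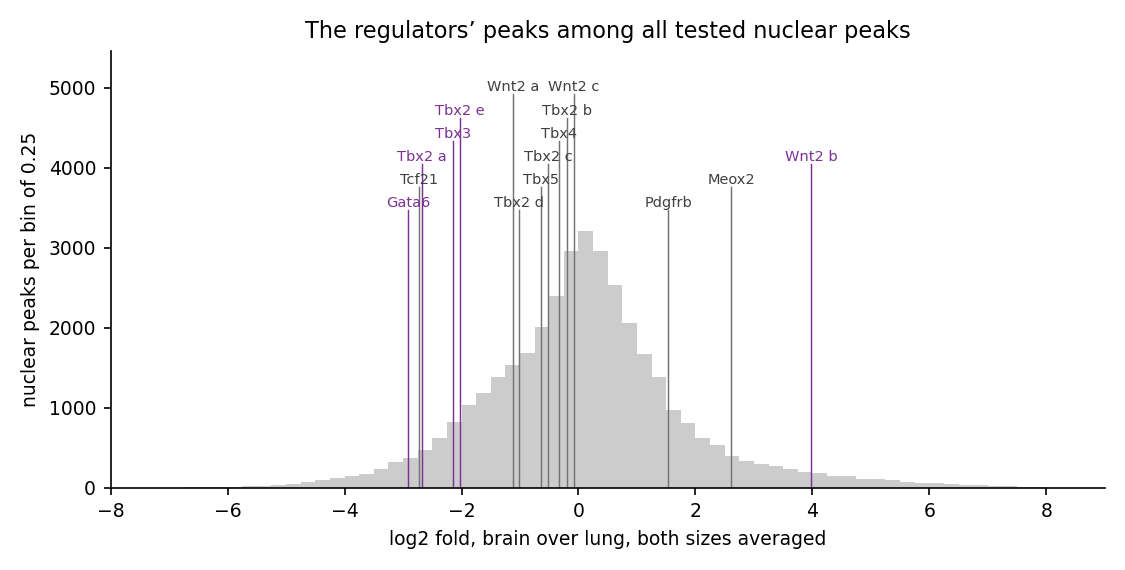
Histogram of the log2 fold of brain over lung (both sizes averaged) over all tested nuclear peaks, in bins of 0.25, with lines at the 15 peaks of the set; purple lines passed the test. Gata6, Tcf21, Tbx3 and the first and last Tbx2 peaks lie at -2 or below, and most others lie near the middle of the histogram.

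With reads summed over the peaks of each gene, Tbx2, Tbx3 and Gata6 were higher in lung and no gene of the set was higher in brain (12.5% of 12672 genes were called, 7.13% higher in lung and 5.41% in brain). The log2 folds were -1.63 ± 0.29 at Tbx2, -2.34 ± 0.27 at Tbx3 and -3.09 ± 0.66 at Gata6 (SE; edgeR adjusted p = 0.00159, 5.17e-05 and 0.00477). Each kept this call without any single library. Tbx3 and Gata6 have 1 peak each, so their sums are the same reads as in the peak test. They were scaled anew and adjusted over 12672 genes rather than 37466 peaks, which adds no separate evidence. Without brain 200-nuclei replicate 1 the Gata6 log2 fold was -2.66 in the sums and -2.46 at the peak, where the call was lost. Wnt2, whose 3 peaks had folds of both signs, had 0.05 ± 0.51 (adjusted p = 0.962), and Tcf21 had -2.90 ± 1.15 (0.114). Over all genes the split of calls turned with the scaling: 903 were higher in lung and 685 in brain, but 601 and 900 when nuclear reads were the only scaling.

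Per kb of peak, Tbx3 had the highest level in lung at both sizes, with 269 ± 62.3 RPM per kb at 50 nuclei and 297 ± 72.9 at 200 nuclei (SD, n = 3). Tbx2 (122 ± 55.7 and 167 ± 43.8) and Gata6 (136 ± 61.5 and 108 ± 26.6) followed, in either order by size. The other 6 genes held 0 to 43.4 RPM per kb at 50 nuclei, with Meox2 at 0, and 42.8 to 97.5 at 200 nuclei, where Tcf21 (97.5 ± 17.5) was within the spread of Gata6 and Meox2 held 71.7 ± 24.3. In brain the order also differed by size. Pdgfrb held 84.8 ± 76.9 RPM per kb at 50 nuclei, below Tbx4 at 92.3 ± 131, and 147 ± 107 at 200 nuclei, the highest there (SD, n = 2). Tcf21 (8.88 ± 12.6 and 6.97 ± 9.86) and Gata6 (35.0 ± 15.4 and 6.30 ± 8.91) were the lowest at both sizes.

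The genes whose summed accessibility tracked the called ones most closely over the 10 libraries were Acer2 (Pearson's r = 0.983), Rhbdf2 (0.978) and Txnip (0.978) for Tbx3, Ifitm3 (0.962), Epha2 (0.960) and Lrrc8b (0.959) for Tbx2, and Sntb1 (0.967), Arap3 (0.964) and Dusp4 (0.961) for Gata6. These are the 3 highest of 11205 genes each, on log2(RPM + 1), and the points share tissue and depth, so they are a description of the pattern across these libraries.

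Relatives of these genes were called in both directions. Over all peaks, 4.39% were higher in lung and 5.76% in brain, and the counts below were not tested against these shares. Of the other T-box genes, only 2 of 14 listed names had a peak, and 1 of 5 peaks was higher in lung (4.39% of all peaks), at Mga, which encodes a large factor with a T-box domain (log2 fold -3.39 ± 0.98 SE, edgeR adjusted p = 0.0211). Among GATA and Meox relatives and GATA cofactors, 2 of 18 peaks were higher in lung, at the GATA cofactor gene Zfpm1 (log2 fold -1.29 ± 0.39 SE) and at Gata2, a factor of blood and endothelium (-2.07 ± 0.68), and 1 in brain, at the further cofactor gene Zfpm2 (4.75 ± 1.31). The bHLH relatives of Tcf21 and its E-protein partners had 1 of 18 peaks higher in lung, at the E-protein gene Tcf4 (-2.68 ± 0.54).

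In the Wnt pathway, 5 of 45 peaks were higher in lung and 2 in brain (4.39% and 5.76% of all peaks). Among them, the ligand genes Wnt2b and Wnt7b were called in opposite directions. Wnt2b was higher in lung (35.6 ± 7.95 against 10.5 ± 12.5 RPM; log2 fold -2.78 ± 0.74 SE, edgeR adjusted p = 0.0119) and Wnt7b in brain (1.85 ± 2.16 against 24.1 ± 8.29 RPM; 3.94 ± 1.03). Tcf7, a factor that acts with beta-catenin, was higher in lung (-1.38 ± 0.37), and the R-spondin receptor gene Lgr5 in brain (4.73 ± 1.30). The PDGF ligand gene Pdgfb had 2 peaks higher in lung, and at the one of lower p lung held 109 ± 28.6 RPM against 26.3 ± 9.53 RPM (log2 fold -2.004 ± 0.36, adjusted p = 0.000245), and these were the only calls among 15 peaks of PDGF ligands and receptor relatives. Other genes of lung mesenchyme had 4 of 45 peaks higher in lung, at the homeobox gene Hoxa5 (log2 fold -4.05 ± 0.61 SE), the forkhead gene Foxf1 (-3.46 ± 0.68) and the TGF-beta receptor gene Tgfbr2 (-1.80 ± 0.44), and 1 in brain, at the FGF receptor gene Fgfr1 (2.25 ± 0.62). Their median log2 fold was -0.68.

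Markers of endothelium, neurons and the oligodendrocyte lineage moved with the tissues. Those of fibroblasts, of pericytes and smooth muscle and of alveolar epithelium had no call. Over all peaks, 4.39% were higher in lung and 5.76% in brain. The part of cell types in the results was not tested. Endothelial markers had 19 of 49 peaks called, all of them higher in lung, and their summed level was 1243 to 1838 RPM in lung and 376 to 572 RPM in brain libraries. Fibroblast markers, the cells in which several of the 10 genes are known to act, had none of 10 peaks called, a median log2 fold of -0.18, and summed levels of 18.3 to 95.3 RPM in lung and 60.2 to 112 RPM in brain. No peak was assigned to the fibroblast genes Col1a2, Col3a1, Dcn, Lum and Mfap4. Pericyte and smooth muscle markers had none of 12 called, with 92.4 to 225 RPM in lung and 125 to 198 RPM in brain, and alveolar epithelium markers none of 19, with 335 to 420 RPM in lung and 266 to 432 RPM in brain. Acta2, Des, Rgs5, Tagln and Sftpc had no peak. In brain, neuronal markers had 10 of 16 peaks higher (344 to 459 RPM against 21.9 to 167 RPM in lung), and oligodendrocyte lineage markers 5 of 19 (386 to 494 RPM against 161 to 318 RPM).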

How the data were processed

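Counts of reads in 37513 peaks, 2 of them mitochondrial, were deposited by the authors as 1 table of 10 libraries, not normalized. Per the submitters' processing notes, the build was mm10 and the tools named include Bowtie2 2.4.5, Picard and MACS2 2.2.7.1, with no roles given. How peaks were merged and reads counted, and whether duplicates were removed or reads shifted for Tn5, is not given in the sources used here. If duplicates remain, counts of few nuclei vary more than counting error. The 10 genes, the gene lists and the tests were chosen with earlier results of these data known.

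Peaks were placed on RefSeq gene models (GRCm38.p6), which give gene ends but no exons, with protein-coding and listed genes competing. Coordinates are as in the table, and a start counted from 0 would move them by 1 base. Peaks with at least 10 reads over the 10 libraries were tested with edgeR 4.0.16 (quasi-likelihood, TMM, 1 mean per tissue-by-size group, Benjamini-Hochberg over all peaks) in R 4.3.3. The SE of each edgeR fold was worked back from the fold and its test statistic, not taken from the model. It is rough where a group is at 0. DESeq2 1.42.0 and other settings were alternatives. The 2 mitochondrial peaks entered the library sizes of the fit, and RPM used nuclear reads only. All 15 peaks are described, other genes by the lowest p (at most 4 per list). On data simulated for brain versus lung (37464 peaks), 82% of 16-fold, 54% of 8-fold, 12% of 4-fold and 0% of 2-fold changes were recovered. Each fold had 50 changed peaks, all peaks had the same dispersion of 0.35, and 2 unchanged peaks were called. Far fewer peaks were changed than the 10.2% called in these data, which makes the adjustment stricter. The rates therefore do not give the recovery in these data.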

Additional observations from a re-analysis of the deposited data

Results flagged for a closer look

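Within the brain libraries, 50-nuclei replicate 1 stood apart at 2 peaks. At the Tbx4 peak it held 30.1 RPM, and the next highest brain library 2.51 RPM. At the Tbx5 peak it held 16.4 RPM, and the next highest 3.13 RPM. In both, the gap to the nearest library was above the Dixon limit for its group. A total of 30 groups of lung or brain libraries were examined, of which chance flags about 1 in 20, and both values rest on 11 and 6 reads.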

How the results depend on the processing

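Results for the 15 peaks were recomputed under other scalings, filters, tests and libraries. The count called between tissues, 5, was 1 to 5 with a single library left out and 4 to 6 otherwise. At 50 nuclei the count of 1 became 2 with DESeq2 and 0 to 2 with a library left out. At 200 nuclei the count of 4 became 1 with the default filter of edgeR, 2 with thinned reads, 2 with the replicate number as a block and 0 to 4 with a library left out, and was 5 without lung 50-nuclei replicates 2 and 3. No called peak or gene changed direction in any setting. For the 15 peaks, the counts of 0 for size and for the interaction stayed 0 in every setting. Over all peaks the count between tissues was 3803, and ranged from 1585 without brain 200-nuclei replicate 1 to 8364 without both those lung libraries. Without lung 50-nuclei replicate 1 the median log2 fold of all peaks moved from 0.07 to 0.42, and 252 peaks, none of the 15, were called between sizes in lung. In the sums per gene, nuclear reads as the only scaling moved the median log2 fold of all genes from 0.05 to 0.22. With every annotated gene competing for peaks the count between tissues was 5. In the sums per gene the 3 called genes became 3 or 4. Leaving out both lung libraries was chosen after seeing the data. Where a brain library was left out, its group held 1 library, assumed to vary like the others. Libraries with the same replicate number did not deviate together (r = -0.03 to 0.02, against -0.027 to 0.03 for different numbers), and not every library correlated best with its own number. The 2 brain libraries of a size deviate from their mean in opposite directions by construction. Their r with any other library are therefore equal and of opposite sign. For this reason the check cannot decide whether libraries of the same number share anything. With the replicate number as a block, 4 of the 15 peaks were called, the narrowest Wnt2 peak being the call lost, and 2042 peaks in all. Depth limits what can be seen at peaks of few reads: brain held 2 reads at Tcf21, 70 at Tbx3 and 9 to 28 at each of the others.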
